A study of Rattus norvegicus with 6 samples.

Results

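The genes described here are 10 readouts of ERK signalling: the phosphatase genes Dusp1, Dusp4, Dusp5 and Dusp6, the Sprouty genes Spry1, Spry2 and Spry4, the Sprouty-related gene Spred1 and the transcription factor genes Etv4 and Etv5. They were taken by symbol from the deposited table of 23096 genes, of which 19988 had a symbol. A row was found for 9 of the 10, and all 9 passed the filter on low values; Dusp1 was not analysed here. The list follows what these genes do in the ERK pathway and uses no threshold on a measured value. It was, however, chosen with earlier results of these data known.

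RNA was measured in perinatal ventricular cardiomyocytes from Wistar rats at E18.5 (embryonic day), in 3 cultures treated with ATRA (all-trans retinoic acid, which activates nuclear retinoic acid receptors) at 10 µM and 3 given its solvent DMSO (vehicle), each for 48 h. The labels name no genetic change in either group, and both were primary cells depleted of fibroblasts by pre-plating and kept on laminin in medium with fetal bovine serum, which itself supplies growth factors. Whether the 3 cultures of a group came from separate cell isolations is not stated in the labels; if they did not, the p-values cover technical spread alone. A single concentration and time were used.

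ERK is the last kinase of a cascade in which growth factor receptors activate RAS, RAF and MEK in turn. Active ERK switches on the transcription of its own inhibitors. Dual-specificity phosphatases remove the activating phosphates from ERK, whereas Sprouty and Spred proteins act higher up, on the activation of RAS and RAF. Etv4 and Etv5 encode ETS family factors of the PEA3 group, whose transcription follows FGF and ERK signalling in many tissues. Transcripts of these genes are therefore often read as a measure of ERK activity, although other signals control each of them as well. Phosphorylated ERK was not measured in these libraries.

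The 6 libraries held 25434878 to 32052035 gene-assigned reads. Cyp26a1, the retinoic acid hydroxylase that serves as a check of exposure, had 42168 to 42938 normalised counts in the ATRA libraries and 35.6 to 56.1 in the vehicle libraries. A normalised count is the number of reads divided by a factor for the depth of the library. Cardiomyocyte markers, against which the label was checked, were the most abundant list in both groups, with a summed level over 13 genes of 26574 to 27141 FPKM (reads scaled to gene length and library size) after ATRA and 21156 to 26187 FPKM in vehicle. Of these 13, 9 were higher and 2 (Myh7 and Nppa) lower in every ATRA library than in every vehicle library. The 17 fibroblast markers summed to 873 to 917 FPKM after ATRA and 925 to 1968 FPKM in vehicle, none of them at 0, with 7 lower and 2 higher in every ATRA library than in every vehicle library. The sum in vehicle replicate 3 was the 925 FPKM, and 14 of its 15 tested fibroblast markers lay below the mean of the other vehicle libraries. So did 8 of 8 epicardial, 9 of 10 endothelial and 5 of 8 smooth muscle and pericyte markers. In contrast, 12 of 13 cardiomyocyte and 4 of 4 immune markers lay above that mean. The endothelial, smooth muscle and pericyte, and epicardial sums were also lowest of the vehicle libraries in replicate 3. Endothelial markers summed to 17.6 to 19.5 FPKM after ATRA and 21.8 to 46 FPKM in vehicle. Of these 13, 2 (Kdr and Robo4) were higher and 4 (Tek, Egfl7, Sox17 and Eng) lower in every ATRA library than in every vehicle library. Smooth muscle and pericyte markers summed to 232 to 247 FPKM after ATRA and 131 to 195 FPKM in vehicle, with 4 of 9 higher and 3 lower in every ATRA library than in every vehicle library. The higher ones were Myh11, Cnn1, Rgs5 and Abcc9, and the lower ones Notch3, Cspg4 and Pdgfrb. Abcc9 alone had a mean of 14064 normalised counts after ATRA and 1287 in vehicle. Epicardial markers summed to 285 to 291 FPKM after ATRA and 86.8 to 137 FPKM in vehicle. Immune markers summed to 2.83 to 3.86 FPKM after ATRA and 1.57 to 2.19 FPKM in vehicle, with Cd163 at 0. Of these 12, 2 (Csf1r and Fcer1g) were higher and 2 (Cd68 and Itgam) lower in every ATRA library than in every vehicle library. Csf1r had means of 315 normalised counts after ATRA and 99.8 in vehicle. Among the 8 epicardial markers found, 1, the keratin gene Krt18, was higher in every ATRA library and 4 were lower. In bulk RNA, fewer cells of a type and less RNA per cell cannot be told apart. The part of other cell types in the results was not tested.

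ATRA did not move the ERK readouts in one direction. Dusp6 fell 5.35-fold and Dusp5 1.55-fold, while Dusp4 rose 2.75-fold. Etv4 rose 1.47-fold and its close relative Etv5 fell 1.31-fold. The fitted changes of Spry1, Spry2, Spry4 and Spred1 lay within 1.31-fold. Of the 9 genes, 2 were called higher (Dusp4 and Etv4) and 5 lower (Dusp5, Dusp6, Spry1, Spry4 and Etv5), where a gene is called if its p from limma, adjusted by Benjamini-Hochberg over every tested gene, is below 0.05. Over all 13110 genes tested, 39.3% were called, 20.3% higher and 18.9% lower, so that 7 calls among 9 genes stand beside a background in which a call is common. Scaling each library by its total alone gave 1763 higher and 3775 lower genes, against 2667 and 2483, with 2 of the 9 genes higher and 6 lower. Normalised counts of the groups did not overlap for 8 of the 9 genes and for 53.8% of all genes tested. The median log2 fold change of the 9 genes was -0.16, against 0.00 for all genes tested.

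**Figure D1:**
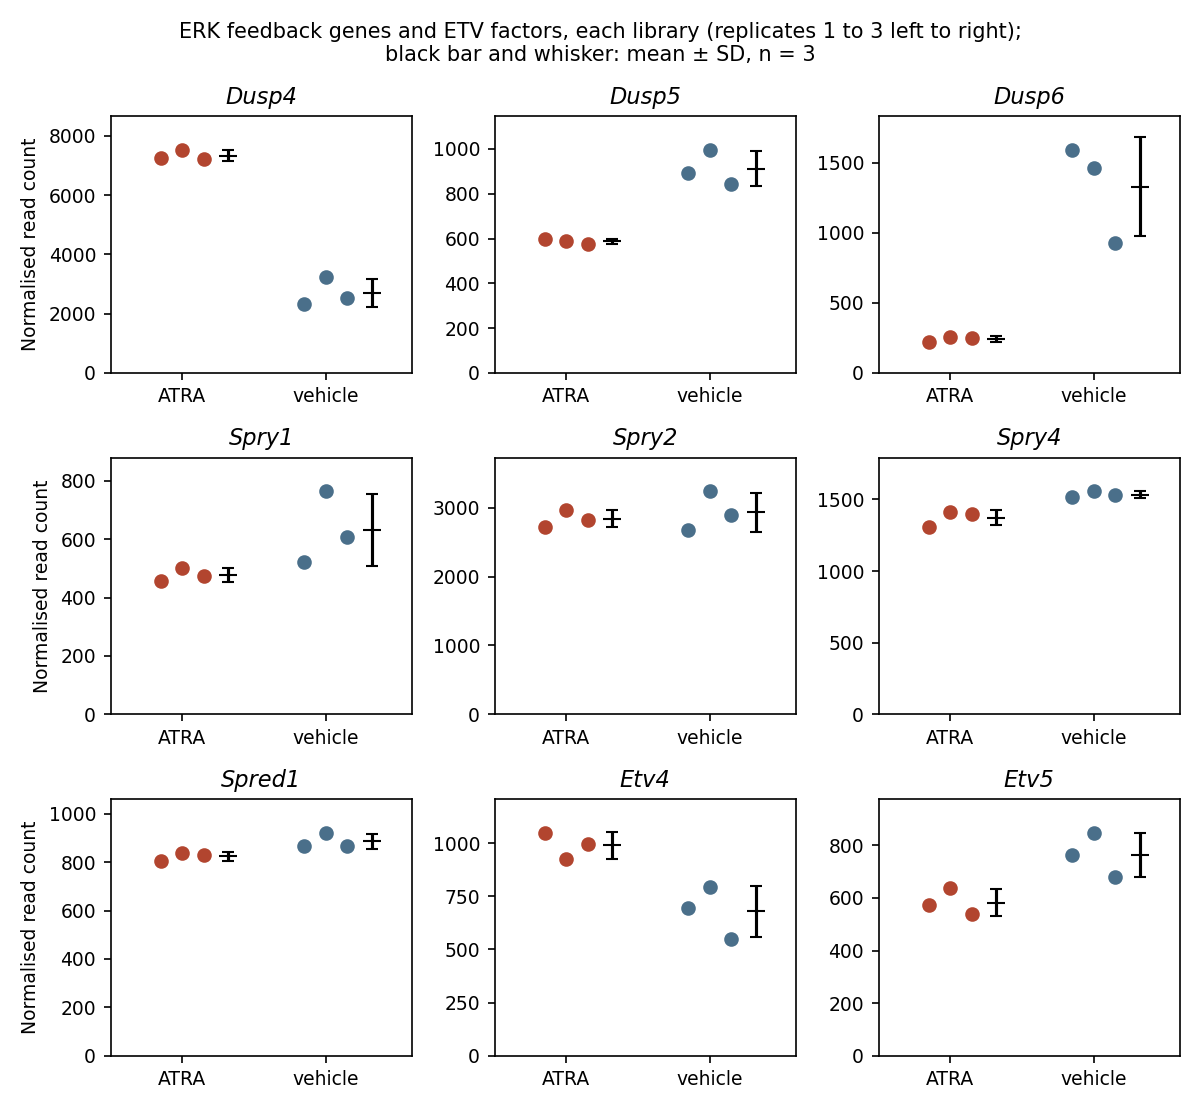
Normalised read counts (vertical axes, from 0) of the 9 genes in each of the 3 ATRA and 3 vehicle libraries, with the mean and SD in black. Dusp4 sits between 7214 and 7531 after ATRA, above all vehicle libraries, Dusp6 between 220 and 259, below all of them, and the Spry2 groups overlap.

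Dusp6 (ENSRNOG00000023896) encodes a cytoplasmic phosphatase that acts almost only on ERK. It had 220, 259 and 246 normalised counts in ATRA replicates 1 to 3, against 1592, 1465 and 930 in vehicle replicates 1 to 3. Every ATRA library was far below every vehicle library, and the vehicle libraries differed among themselves, with replicate 3 lowest. The means were 242 ± 19.5 after ATRA and 1329 ± 352 in vehicle (SD, n = 3 each), a log2 fold change of -2.42 ± 0.19 (SE, limma adjusted p = 8.11e-05). Only 1.01% of the genes tested had a lower log2 fold change. Without vehicle replicate 3, which had the lowest Dusp6 value of the vehicle libraries, the change was -2.66. That library also had the lowest fibroblast, endothelial, smooth muscle and pericyte, and epicardial marker sums of the vehicle libraries.

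Dusp4 (ENSRNOG00000011921) encodes a nuclear phosphatase for ERK that can also act on the stress kinases JNK and p38. It had 7266, 7531 and 7214 normalised counts in the ATRA libraries, against 2327, 3221 and 2541 in the vehicle libraries. All ATRA libraries were higher, and they lay closer together than the vehicle libraries did. The means were 7337 ± 170 after ATRA and 2696 ± 467 in vehicle (SD, n = 3 each), a log2 fold change of 1.46 ± 0.11 (SE, limma adjusted p = 6.65e-05), and 98.1% of the genes tested had a lower one. Dusp5 (ENSRNOG00000014061), a nuclear phosphatase specific for ERK, had 598, 590 and 577 normalised counts after ATRA, against 894, 997 and 844 in vehicle. The groups did not overlap, and the log2 fold change was -0.63 ± 0.08 (SE, limma adjusted p = 0.000633). Each of these 3 calls held in all 17 other settings tried, with log2 fold changes of -2.66 to -2.27 for Dusp6, 1.35 to 1.59 for Dusp4 and -0.74 to -0.56 for Dusp5.

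Levels can be compared between genes only per length, and on that scale the phosphatase transcripts were differently composed in each group. After ATRA Dusp4 averaged 57.4 ± 1.33 FPKM, Dusp5 8.51 ± 0.154 FPKM and Dusp6 3 ± 0.243 FPKM. In vehicle Dusp4 averaged 21.1 ± 3.65 FPKM, Dusp5 13.2 ± 1.12 FPKM and Dusp6 16.5 ± 4.36 FPKM (SD, n = 3 each). With Dusp7, another cytoplasmic ERK phosphatase gene, the sum of the 4 was 91.5, 93 and 89 FPKM in the ATRA libraries, against 61.2, 68.2 and 54.7 FPKM in the vehicle libraries. The summed level of these 4 genes was thus higher in every ATRA library, although Dusp5 and Dusp6 were lower. Dusp1, which was not analysed, and Dusp2 and Dusp9 are not part of this sum. Dusp6 made up 2.99% to 3.45% of this sum after ATRA and 21.1% to 32.3% in vehicle, and Dusp4 made up 62.1% to 63.4% after ATRA and 29.7% to 36.9% in vehicle. These are transcript levels and not phosphatase activities.

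**Figure D2:**
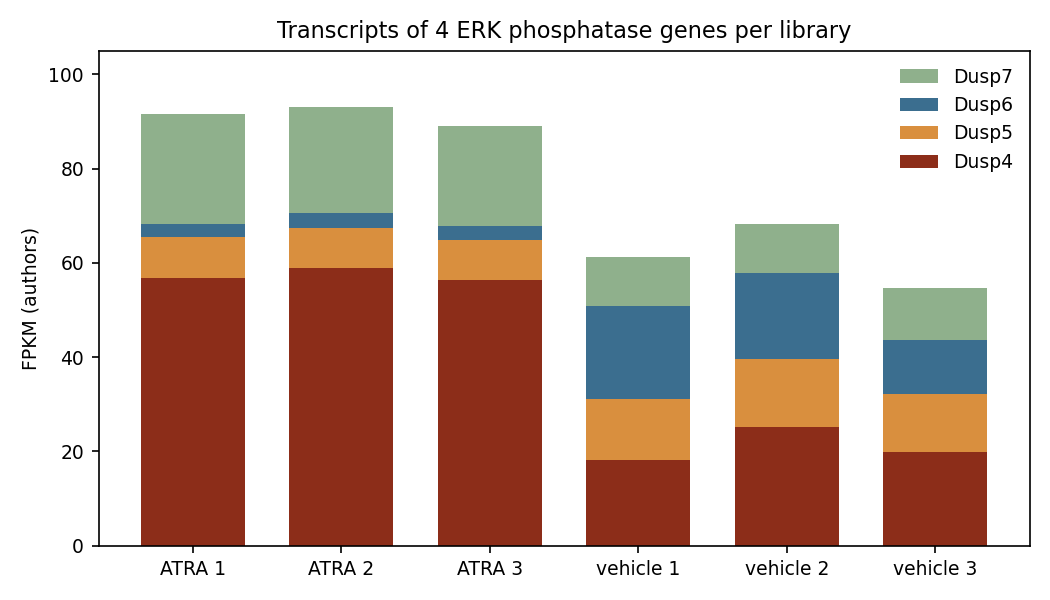
Stacked FPKM values (vertical axis, by the authors) of the ERK phosphatase genes Dusp4, Dusp5, Dusp6 and Dusp7 in each library, ATRA libraries on the left. The bars reach 89 to 93 FPKM after ATRA and 54.7 to 68.2 FPKM in vehicle, and the Dusp6 part is thin after ATRA while the Dusp4 part is wide.

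The paralogous phosphatase genes also went both ways. Of 9 tested paralogs of all kinds, 3 were called higher and 3 lower, shares of 33.3% each beside 20.3% and 18.9% of all genes tested. Without vehicle replicate 3, 2 were higher and 4 lower. Dusp7 had 2694, 2582 and 2450 normalised counts after ATRA, against 1196, 1204 and 1283 in vehicle. It rose 2.1-fold, with no overlap between the groups (log2 fold change 1.07 ± 0.06, SE, limma adjusted p = 1.33e-05). Dusp10, whose product acts mainly on JNK and p38, had 224, 236 and 225 normalised counts after ATRA and 752, 615 and 571 in vehicle, a 2.8-fold fall (-1.49 ± 0.11, limma adjusted p = 6.85e-05). Dusp2, a nuclear phosphatase gene of immediate early type, fell 2.29-fold at a low level, with means of 51 ± 4.83 after ATRA and 120 ± 29.5 in vehicle (SD, n = 3 each; limma adjusted p = 0.00268). Dusp8, also a JNK and p38 phosphatase gene, fell to 639 to 816 normalised counts after ATRA, against 936 to 1779 in vehicle (-0.74 ± 0.22, limma adjusted p = 0.0281). Vehicle replicate 3 held its highest value, without which the log2 fold change was -0.47 and still called, and the call was lost in 4 of 17 other settings. Dusp16 (-0.23 ± 0.10, limma adjusted p = 0.0906) and Dusp9 (0.18 ± 0.33, limma adjusted p = 0.701) were not called, although Dusp16 was in 3 of 17 other settings, among them without vehicle replicate 1 (-0.31, limma adjusted p = 0.0242). Dusp9 was close to the filter at 14.8 to 27.1 normalised counts over the 6 libraries.

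Means of the Sprouty genes and Spred1 lay close together in the groups. Spry2 (ENSRNOG00000010058), the most abundant of them at 27.8 ± 1.2 FPKM after ATRA and 28.8 ± 2.8 FPKM in vehicle (SD, n = 3 each), encodes an adaptor that restrains receptor signalling to RAS. It had 2725, 2968 and 2827 normalised counts after ATRA, against 2675, 3240 and 2892 in vehicle. The groups overlapped and no call was made (log2 fold change -0.04, 95% interval -0.22 to 0.13, limma adjusted p = 0.675). This interval leaves out changes of the size seen for Dusp5, Dusp6 or Dusp4. Spred1 (ENSRNOG00000070996), which brings the RAS inactivator neurofibromin to the membrane, had 805, 838 and 828 normalised counts after ATRA and 869, 923 and 869 in vehicle. The ATRA libraries were all lower by a small margin, and the gene was not called (-0.11, 95% interval -0.24 to 0.03, limma adjusted p = 0.192), except with each library scaled by its total alone (-0.21, adjusted p = 0.0202).

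Spry4 and Spry1 were called lower close to the threshold. Spry4 (ENSRNOG00000013851), a Sprouty gene strongly induced by FGF signalling in embryos, had 1310, 1412 and 1395 normalised counts after ATRA, against 1514, 1557 and 1530 in vehicle. The groups did not overlap, yet the change was only 1.12-fold (-0.16 ± 0.05, SE, limma adjusted p = 0.0458), and the call was lost in 8 of 17 other settings, with adjusted p-values up to 0.175. With the replicate number as a block the adjusted p was 0.0967. Spry1 (ENSRNOG00000025371) had 456, 501 and 473 normalised counts after ATRA, against 521, 765 and 609 in vehicle. Every ATRA library was below every vehicle library, by a wide margin only for vehicle replicate 2. The fall was 1.31-fold (-0.39 ± 0.13, SE, limma adjusted p = 0.0499), lost in 6 of 17 other settings and -0.24 without vehicle replicate 2 (limma adjusted p = 0.113). Among the paralogs, Spred2 rose 1.23-fold, with 675 to 683 normalised counts after ATRA and 542 to 569 in vehicle (0.29 ± 0.06, limma adjusted p = 0.00756). Spred3 was not called (-0.68 ± 0.26, limma adjusted p = 0.0715), but it was called without vehicle replicate 3 (-0.89, limma adjusted p = 0.0128). Spry3 did not reach the filter, with at most 7.81 normalised counts in a library.

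The PEA3 factors split. Etv4 (ENSRNOG00000020792) had 1050, 924 and 997 normalised counts after ATRA, against 693, 793 and 551 in vehicle. The ATRA libraries were all higher, and vehicle replicate 3 was lowest. The means were 991 ± 63.4 after ATRA and 679 ± 122 in vehicle (SD, n = 3 each), and the log2 fold change was 0.56 ± 0.13 (SE, limma adjusted p = 0.0106). It was 0.42 without vehicle replicate 3 and still called (limma adjusted p = 0.00295), and it was just lost without ATRA replicate 1 (limma adjusted p = 0.05). Etv5 (ENSRNOG00000001785) had 573, 637 and 538 normalised counts after ATRA, against 762, 849 and 681 in vehicle. All ATRA libraries were lower, with a log2 fold change of -0.39 ± 0.10 (SE, limma adjusted p = 0.0181). That call was lost without ATRA replicate 1 or 3 or vehicle replicate 2 (limma adjusted p = 0.0664, 0.0782 and 0.0604). Etv1, the remaining gene of the group, had 244, 236 and 221 normalised counts after ATRA and 168, 210 and 142 in vehicle. Its rise (0.44 ± 0.15, limma adjusted p = 0.0476) was called in only 4 of 17 other settings.

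**Figure D3:**
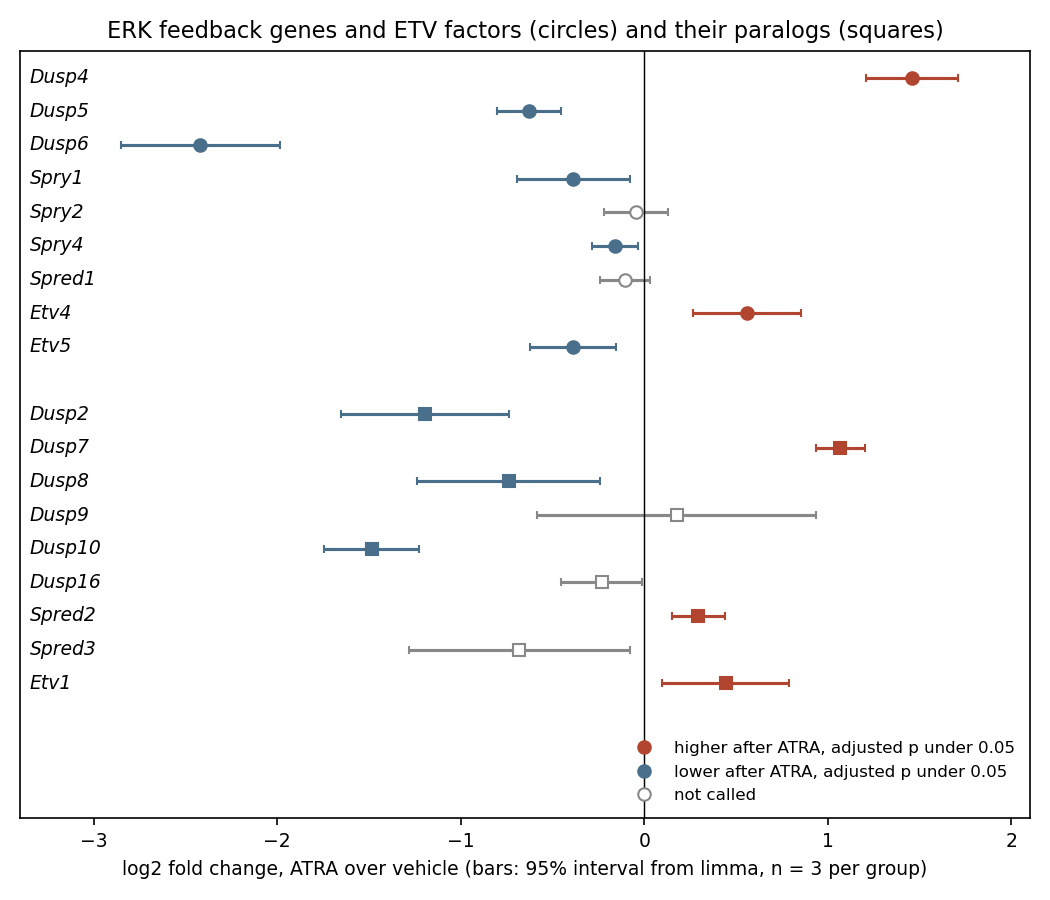
log2 fold changes, ATRA over vehicle (horizontal axis), with 95% intervals from limma for the 9 genes (circles) and 9 tested paralogs (squares), red where called higher, blue where called lower and open where not called. Dusp4 and Dusp7 lie at 1.46 and 1.07, Dusp6 and Dusp10 at -2.42 and -1.49, and Spry1, Spry2, Spry4, Spred1 and Spred2 lie between -0.39 and 0.29.

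The number of calls changed when single libraries were left out, in fits that hold fewer samples. Leaving out ATRA replicate 1, 2 or 3 or vehicle replicate 2 left 2, 3, 2 and 2 of the 9 genes lower instead of 5. Without vehicle replicate 1, 4 were lower, and without ATRA replicate 1 only Dusp4 was called higher. Over all genes tested, leaving out 1 ATRA library gave 1715 to 1761 higher and 1645 to 1655 lower genes, against 2667 and 2483. Without vehicle replicate 3 these were 3404 and 3161. Vehicle replicate 2 held the highest vehicle value for 8 of the 9 genes, all but Dusp6, whereas it was the highest vehicle library for 24.7% of all genes tested. ATRA replicate 2 was the highest ATRA library for 7 of the 9 and for 33.2% of all genes tested. Vehicle replicate 3 was the highest vehicle library for 0 of the 9 and for 39.1% of all genes tested. ATRA replicate 3 was the highest ATRA library for 0 of the 9 and for 34.2% of all genes tested.

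**Figure D4:**
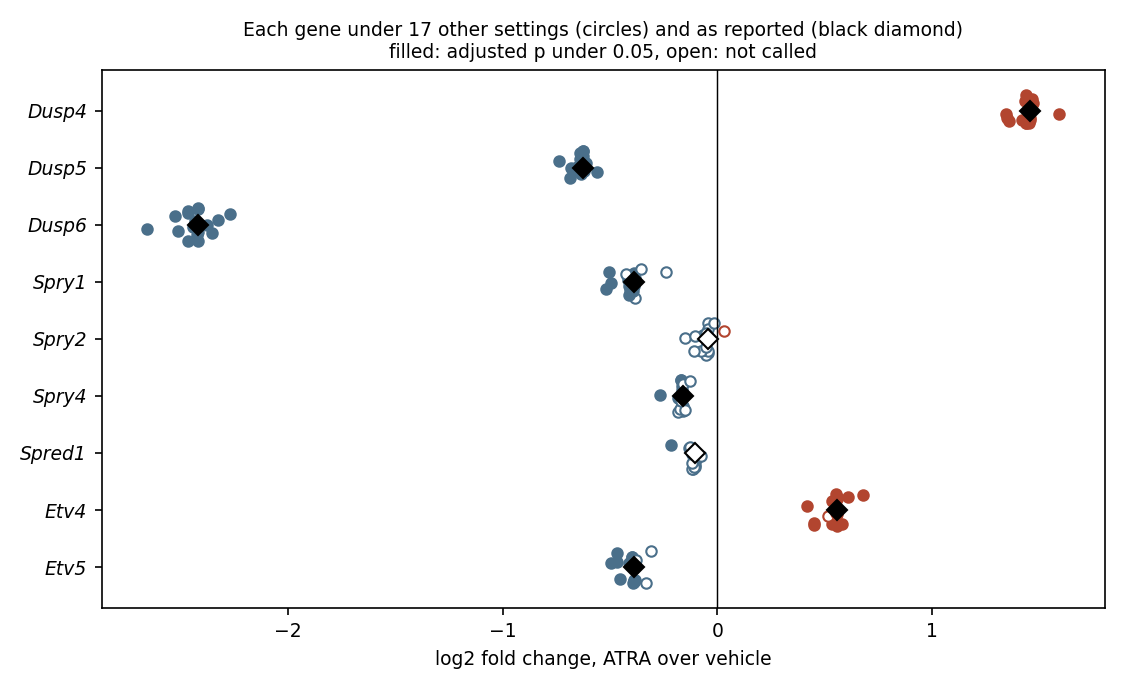
log2 fold change of each gene, ATRA over vehicle (horizontal axis), as reported (black diamond) and under 17 other settings (circles), filled where the adjusted p is under 0.05. Dusp4, Dusp5 and Dusp6 are filled throughout, Spry2 nowhere, and Spry1, Spry4 and Etv5 are filled in part.

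The order of levels changed with treatment. In FPKM the order after ATRA was Dusp4, Spry2, Etv4, Spry4, Dusp5, Etv5, Spred1, Dusp6 and Spry1, and no neighbours in it overlapped over the 3 libraries. In vehicle the order was Spry2, Dusp4, Dusp6, Dusp5, Spry4, Etv4, Etv5, Spred1 and Spry1, where Dusp4 overlapped Dusp6, Dusp6 overlapped Dusp5 and Etv4 overlapped Etv5. Dusp6 was thus next to last of the 9 after ATRA, and in vehicle it came behind Spry2 and Dusp4 alone.

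The promoters of 7 of the 9 genes were matched by symbol in RefSeq (GRCr8), as windows from 250 bases before to 50 bases after the annotated start; Dusp4 and Etv4 had no entry. They were searched on both strands for GGAA, the core read by ETS factors such as those encoded by Etv4 and Etv5, and for the CArG box bound by serum response factor, taken as CC, 6 bases of A or T, and GG. The windows of Dusp6, Etv5 and Spry4 are shown with GGAA or its reverse complement in capitals, for a gene that fell strongly, one that fell mildly and one that hardly moved, and that of Dusp5 with its CArG boxes in capitals. The Dusp6 window is chr7:35979354-35979653, that of Etv5 chr11:92113013-92113312 and that of Dusp5 chr1:262543524-262543823, all on the plus strand, and that of Spry4 is chr18:30702497-30702796 on the minus strand.
Dusp6: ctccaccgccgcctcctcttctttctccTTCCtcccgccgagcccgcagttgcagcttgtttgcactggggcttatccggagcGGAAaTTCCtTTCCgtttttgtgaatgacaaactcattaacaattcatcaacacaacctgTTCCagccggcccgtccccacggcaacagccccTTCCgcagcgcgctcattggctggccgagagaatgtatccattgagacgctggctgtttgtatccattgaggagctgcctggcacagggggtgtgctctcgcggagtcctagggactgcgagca
Etv5: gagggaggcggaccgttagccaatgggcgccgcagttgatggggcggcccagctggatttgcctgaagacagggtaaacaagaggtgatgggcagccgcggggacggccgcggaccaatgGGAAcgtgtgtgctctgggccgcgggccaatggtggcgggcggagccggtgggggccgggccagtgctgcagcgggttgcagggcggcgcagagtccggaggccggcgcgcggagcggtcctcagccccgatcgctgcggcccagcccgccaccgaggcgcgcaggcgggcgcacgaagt
Spry4: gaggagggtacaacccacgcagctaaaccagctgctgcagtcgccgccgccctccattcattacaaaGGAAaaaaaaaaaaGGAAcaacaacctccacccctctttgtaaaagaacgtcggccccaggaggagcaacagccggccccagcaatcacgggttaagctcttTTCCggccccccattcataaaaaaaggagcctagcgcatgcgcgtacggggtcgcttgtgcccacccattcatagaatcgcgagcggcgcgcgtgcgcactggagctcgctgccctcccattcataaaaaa
Dusp5: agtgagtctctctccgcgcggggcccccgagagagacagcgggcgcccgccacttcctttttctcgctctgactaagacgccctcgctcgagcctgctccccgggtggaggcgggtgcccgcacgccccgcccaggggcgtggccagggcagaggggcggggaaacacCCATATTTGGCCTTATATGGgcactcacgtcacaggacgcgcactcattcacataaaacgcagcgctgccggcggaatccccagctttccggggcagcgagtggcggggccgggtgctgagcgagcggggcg

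GGAA occurred 6 times in the Dusp6 window, 4 times in that of Dusp5, 3 times in those of Spry4 and Spred1, once in that of Etv5 and 0 times in that of Spry1. Spry2 had 2 and 4 in its 2 listed start windows. Over 33365 windows of the same length 95.8% held at least 1, the median was 3, and 83.6% held fewer than Dusp6. The capitals in the Dusp5 window are 2 adjoining CArG boxes that begin 82 and 72 bases before the start and overlap no GGAA. At least 1 CArG box was found in 1.63% of all windows, and none in the windows of the other 6 genes. These matches describe the letters of these windows and not binding.

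Other genes known to respond to ERK were mostly lower after ATRA. Of 26 tested members of a list of such genes, 22 were called lower, a share of 84.6% beside 18.9% of all genes tested. The list was drawn up with earlier results of these data known, so this share describes the list and is no independent test. The list held 1 higher gene, a share of 3.85% beside 20.3%, and 3 that were not called. Its median log2 fold change was -1.23 beside 0.00 for all genes tested. Egr1, an immediate early zinc finger factor gene, had 618, 728 and 678 normalised counts after ATRA, against 4437, 8484 and 4397 in vehicle. It fell 8.15-fold, without overlap of the groups (-3.03 ± 0.23, SE, limma adjusted p = 7.66e-05), as did Fos, the AP-1 subunit gene (-3.48 ± 0.20, limma adjusted p = 1.54e-05), Egr2 (-3.19 ± 0.31) and Egr3 (-3.80 ± 0.47). Ereg, which encodes the EGF receptor ligand epiregulin, had the lowest log2 fold change of the list (-4.05 ± 0.36, limma adjusted p = 0.000142). Srf, the gene of serum response factor, was the 1 higher member, with 6623 to 7257 normalised counts after ATRA and 4360 to 5802 in vehicle (0.41 ± 0.11, limma adjusted p = 0.017), lost without ATRA replicate 1 or 3 (limma adjusted p = 0.0699 and 0.0634). Ccnd1, the cyclin D1 gene, was not called (0.26 ± 0.12, 95% interval -0.02 to 0.54, limma adjusted p = 0.124); leaving out vehicle replicate 1 made it a call (0.41, limma adjusted p = 0.00155). Without vehicle replicate 1 or 3, 2 of the list were higher. Immediate early genes also respond to stress and to kinases other than ERK.

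The cascade itself held calls in both directions. Of 25 tested genes from adaptors to the kinases downstream of ERK, 7 were called higher and 1 lower, and the other 17 gave no call, beside 20.3% higher and 18.9% lower over all genes tested; the median log2 fold change was 0.04. With each library scaled by its total, 5 were higher and 5 lower. Mapk3, the ERK1 gene, was listed at 0 in every library, so its level cannot be read from the table. The MEK gene Map2k1 was not called (-0.07 ± 0.06, limma adjusted p = 0.403), and Map2k2 was called higher (0.30 ± 0.10, limma adjusted p = 0.0432) but lost the call in 9 of 17 other settings. The higher genes with the largest changes encode adaptors between receptors and RAS, namely Frs3 (1.03 ± 0.20, limma adjusted p = 0.00538), Gab2 (0.90 ± 0.07, limma adjusted p = 8.34e-05) and Grb2 (0.58 ± 0.04, limma adjusted p = 6.93e-05), followed by the RAS relative Mras (0.49 ± 0.09, limma adjusted p = 0.00405). Grb2 had 4723 to 4860 normalised counts after ATRA and 3151 to 3232 in vehicle. The 1 lower gene was Rps6ka3, a kinase gene downstream of ERK (-0.23 ± 0.07, limma adjusted p = 0.0299); without vehicle replicate 3, 4 cascade genes were lower, without vehicle replicate 1, 3, and without vehicle replicate 2 or any 1 ATRA library, 0. Without ATRA replicate 2 or 3, 4 cascade genes were higher in place of 7.

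Among 23 tested other negative regulators of the pathway, 5 were called higher, a share of 21.7% beside 20.3% of all genes tested, and 10 lower, a share of 43.5% beside 18.9% (median -0.23). Ptprr, a phosphatase gene for ERK, fell to 13.7 to 21.7 normalised counts after ATRA, against 68.5 to 98.7 in vehicle (-2.28 ± 0.25, limma adjusted p = 0.000378). The genes of the RAS GTPase activators Rasa2 (-0.68 ± 0.15) and Rasa3 (-0.56 ± 0.09) and of the EGF receptor inhibitor Errfi1 (-0.61 ± 0.12, limma adjusted p = 0.00501) fell as well. Socs2, a suppressor of cytokine signalling, rose most in this list (0.75 ± 0.11, limma adjusted p = 0.00164), followed by Dok1 (0.42 ± 0.14), Lrig1 (0.34 ± 0.07), which restrains ERBB receptors, and Sh2b3 (0.32 ± 0.07). The Dok1 call was lost in 10 of 17 other settings. With the replicate number as a block, 3 were higher, as also without any 1 ATRA library or without vehicle replicate 2.

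Of a list of receptors, most of them kinases upstream of ERK, 4 of 24 tested were called higher, a share of 16.7% beside 20.3% of all genes tested, and 12 lower, a share of 50% beside 18.9% (median -0.40). The 24 include Igf2r and Fgfrl1, which are not kinases and were not called. Without vehicle replicate 3, 5 were higher and 13 lower. Kdr, a VEGF receptor gene, rose 3.65-fold, with 960 to 1098 normalised counts after ATRA and 257 to 306 in vehicle (1.87 ± 0.09, limma adjusted p = 8.68e-06). The neuregulin receptor genes Erbb4 (0.94 ± 0.20) and Erbb2 (0.72 ± 0.09) and the stem cell factor receptor gene Kit (0.85 ± 0.11) were also higher. Ntrk2 (-4.31 ± 0.19), the TrkB gene, fell most, before Flt1 (-2.73 ± 0.27), another VEGF receptor gene, Axl (-2.10 ± 0.27), the receptor gene for Gas6, and the collagen receptor gene Ddr2 (-1.41 ± 0.28). Axl and Ddr2 had their lowest vehicle values in replicate 3, at 2338 and 760 normalised counts. Both were still above all ATRA libraries there, which held 812 to 896 and 464 to 491. Among vehicle libraries, replicate 3 also had the lowest fibroblast, endothelial, smooth muscle and pericyte, and epicardial marker sums. Ddr2 is itself a fibroblast marker of the list above. Kdr is on the endothelial marker list, where it was the only gene called higher while Tek, Egfl7, Sox17 and Eng were called lower. Pdgfrb, called lower here, is on the smooth muscle and pericyte list.

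Of the ligands, 4 of 26 tested were called higher, a share of 15.4% beside 20.3% of all genes tested, and 8 lower, a share of 30.8% beside 18.9% (median -0.14). Without vehicle replicate 3, 6 were higher and 7 lower. Tgfa, which encodes an EGF receptor ligand, rose 3.05-fold, with 2517, 2806 and 2772 normalised counts after ATRA, against 984, 696 and 1000.5 in vehicle (1.61 ± 0.13, limma adjusted p = 0.00011). The VEGF genes Vegfa (0.84 ± 0.08) and Vegfb (0.38 ± 0.06) and the insulin-like growth factor gene Igf2 (0.61 ± 0.10) also rose. Gdnf, at 1.01 to 2.94 normalised counts after ATRA and 14.8 to 16.5 in vehicle, was lower, as were the neurotrophin gene Bdnf (-1.22 ± 0.16) and the neuregulin gene Nrg1 (-1.15 ± 0.22). The lower count was 5, 5, 4 and 5 without ATRA replicate 1, 2 or 3 or vehicle replicate 2.

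**Figure D5:**
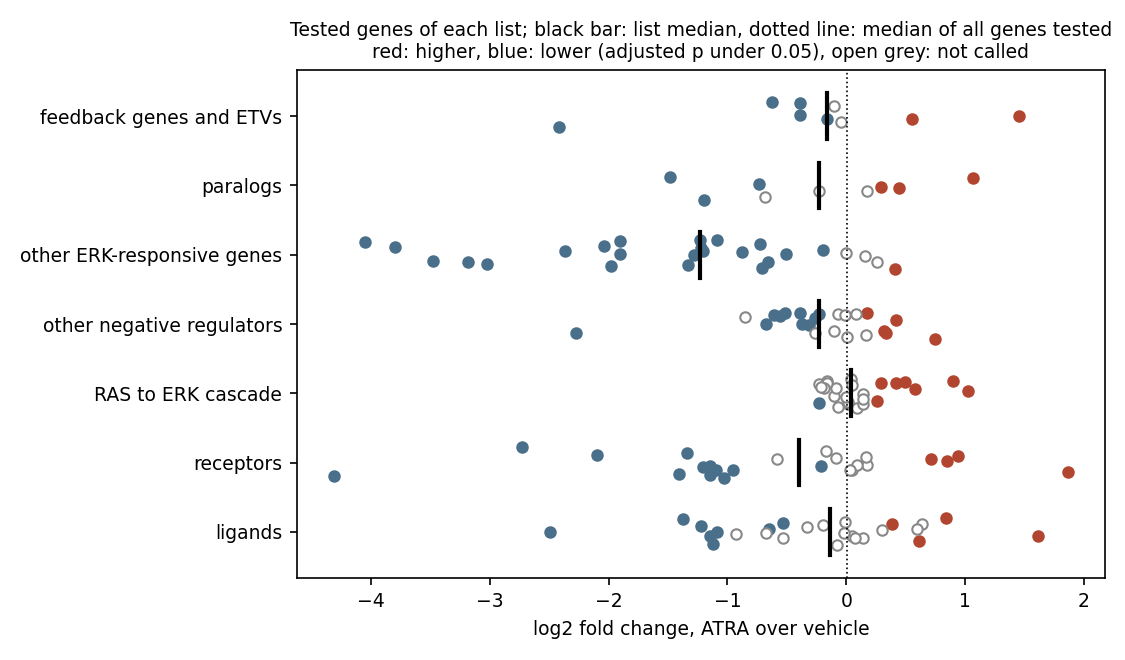
log2 fold changes, ATRA over vehicle (horizontal axis), of the tested genes in each list, with the list median as a black bar and the median of all genes tested as a dotted line. The other ERK-responsive genes lie mostly to the left with a median of -1.23, and the cascade genes lie around 0.04. The lists were chosen with earlier results of these data known.

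The 5 tested genes whose values over the 6 libraries ran closest to those of Dusp6, by Euclidean distance of log2 values centred on each gene's mean, were Sox9, Inhba, B3gnt9, Thbs1 and Kcnk2. Sox9, a transcription factor gene of connective tissue and valve progenitors, was nearest at a distance of 0.20, where the median over all genes tested was 3.05. It had 86.2, 95 and 99.7 normalised counts after ATRA, against 564, 516 and 326 in vehicle. Inhba, the activin A subunit gene (0.30), B3gnt9 (0.32), the matrix glycoprotein gene Thbs1 and the potassium channel gene Kcnk2 (both 0.33) followed. All 5 had their lowest vehicle value in replicate 3 and were called lower, with log2 fold changes of -2.58 for Thbs1 to -2.23 for Kcnk2. They were picked by these same values, so a likeness to Dusp6 in these traits follows from the choice and is no separate result.

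In the authors' deposited table, the log2 fold changes were -2.46 for Dusp6, 1.44 for Dusp4, -0.63 for Dusp5, 0.54 for Etv4, -0.39 for Etv5, -0.41 for Spry1, -0.16 for Spry4, -0.11 for Spred1 and -0.05 for Spry2. The adjusted p in the authors' deposited table was 0.0985 for Spry4, which does not pass 0.05, and 0.0258 for Spry1.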

How the data were processed

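Poly(A) RNA was sequenced from 3 ATRA and 3 vehicle cultures. Per the submitters' processing notes the tools were STAR 2.7.3a, Trim Galore 0.6.4, DESeq2 1.32.0 and HTSeq 0.11.2, with the build mRatBN7.2; annotation release and strand setting: not given in the sources used here. Per the file headers, the table holds a normalised count signal, for which the authors divided reads by a size factor, and FPKM values by the authors, proportional to it within each gene. It also gives the authors' log2 fold change, test score, p-value and adjusted p-value. The values were whole multiples of 1 step per library (100% within 1e-06, the step of ATRA replicate 2 being hard to tell from 1), which gave back the reads, 25434878 to 32052035 per library. Depth limits genes near 3 reads, or 0.0936 to 0.118 CPM.

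limma 3.58.1 (trended variance) was fitted to log2(normalised count + 1) for the 13110 genes with at least 10 in at least 3 libraries, so fold changes of low genes are understated. A call needed p below 0.05 after Benjamini-Hochberg adjustment over every tested gene. The fit was tested on data simulated with the same spread in both groups. That test therefore does not cover the larger spread among vehicle libraries given below. Of symbols shared by several genes, the most abundant was kept (205 set aside). Alternatives were another pseudocount (0.5 or 10), no filter or a filter of 50, scaling by library total, upper quartile or TMM, array weights, the replicate number as a block, each library left out, and edgeR 4.0.16 and DESeq2 1.42.0 on recovered reads, where edgeR called 2550 genes higher and 2593 lower. The genes and lists were chosen with earlier results of these data known. Named were all 9 genes found and their paralogs, up to 4 largest called rises and falls per list, core kinases and classic targets, and the 5 genes nearest Dusp6; some genes that this rule names are not reported here singly. In the lists 1 cascade and 1 target symbol did not match. Replicates were compared for duplication by a chi-square test on reads, and none agreed within sampling noise. Pairs of ATRA libraries gave 2.59 to 3.42 per degree of freedom and pairs of vehicle libraries 23.5 to 49.1. Spread was thus larger among vehicle libraries, while the main fit used 1 variance per gene for both groups. Promoter windows come from RefSeq (GRCr8), another build than the files', and serve for sequence only.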

Additional observations from a re-analysis of the deposited data

How the results depend on the processing

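Dusp4, Dusp5 and Dusp6 kept direction and call in all 17 alternatives. Over the 17 alternatives of each of the 9 genes, 133 results had the same direction and call as reported, 18 lost the call, 1 gained it (Spred1, library total scaling) and 1 changed sign (Spry2, -0.11 to 0.029 with single libraries left out, the highest without vehicle replicate 2, not called). With no filter 3 of the 9 genes were lower; with single libraries left out 1 to 2 were higher and 2 to 5 lower. Scaling by library total moved the median of all genes tested to -0.10 and gave 1763 higher and 3775 lower genes, against 2667 and 2483; with single libraries left out the ranges were 1715 to 3404 and 1645 to 3161. Library total scaling left 5 paralogs, 5 cascade genes lower and 3 other negative regulators higher; array weights gave 5 lower paralogs, 3 lower cascade genes and 3 higher ERK-responsive genes; upper-quartile scaling gave 2 lower cascade genes and 3 higher negative regulators, and no filter also 3. With single libraries left out, the higher and lower counts ranged over 4 to 8 and 0 to 4 for the cascade, 3 to 5 higher negative regulators, 0 to 2 higher ERK-responsive genes and 4 to 7 lower ligands. The cause was not tested, except that these fits hold fewer samples. With the replicate block, 3 negative regulators were higher and 2 and 4 of the 9 genes were higher and lower, and Spry4 lost its call. Over all genes tested, same-numbered libraries did not deviate together (correlations 0.0004, -0.103 and -0.013), so the numbers were not taken as pairs. Among the 9 genes, however, replicate 2 was highest in both groups for Dusp4, Spry1, Spry2, Spry4, Spred1 and Etv5. Replicate 3 was highest in neither group for any of the 9. Genes with few reads, such as Dusp9 and Spry3, are limited by depth.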
